A study of Mus musculus with 4 samples.

Results

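Of the 31053 genes in the UMI matrices of a study of the mouse prostate, 6 genes of steroid signalling are described: the receptors *Nr3c1*, *Esr1* and *Pgr* and the enzymes *Srd5a1*, *Srd5a2* and *Hsd11b2*. They were chosen by name for what they encode, and each was found as 1 feature in all 4 matrices. Droplet-based single-cell RNA sequencing had been run on sorted epithelial cells of ICR (CD-1) mice, and the adult mice carried P2-Runx1:RFP, in which red fluorescent protein reports the proximal P2 promoter of *Runx1*. All adult groups, intact controls included, carried this reporter, while the labels name no reporter for the explants. Adult males were over 8 weeks old. Runs 1 and 2 held pools of intact mice and pools of mice castrated for over 4 weeks, and run 3 held intact mice alone. Cells were sorted by RFP from 3 lobes, the ventral prostate (VP), the dorsolateral prostate (DLP) and the anterior prostate (AP), and sample barcodes told these populations apart, except that the castrated lobes of run 1 were combined. The fourth library held cells of urogenital sinus explants, taken at E15.5 and cultured with 10 µM dihydrotestosterone, at days 0, 1, 3 and 6. Each replicate was thus a pool of mice, and p-values measure the spread between runs.

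Steroid receptors are transcription factors that bind DNA once a steroid has bound them. *Nr3c1* encodes the glucocorticoid receptor, which is activated by corticosterone in mice, *Esr1* encodes estrogen receptor alpha, and *Pgr* encodes the progesterone receptor, a classical target gene of estrogen receptor. In the prostate the steroid signal is shaped within the tissue: *Srd5a1* and *Srd5a2* encode steroid 5-alpha-reductases, which convert testosterone to the stronger androgen dihydrotestosterone, and *Hsd11b2* encodes the 11-beta-hydroxysteroid dehydrogenase that inactivates glucocorticoids.

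In GRCm38, on which the mm10 reference is built, *Esr1* lies at chr10:4611593-5005614 and *Pgr* at chr9:8899833-8968611, both on the plus strand. *Srd5a1* lies at chr13:69573449-69611442 and *Srd5a2* at chr17:74016955-74047916, both on the minus strand, and *Hsd11b2* lies at chr8:105518755-105523988 on the plus strand. The sequences just upstream of the reductase genes are shown because the 2 enzymes carry out the same reaction but were measured at very different depths in the same cells. They are from RefSeq for GRCm38.p6, read 5′ to 3′ on the gene's own strand, and capitals mark the GC box GGGCGG. The *Srd5a1* sequence covers chr13:69611464-69611713 (minus strand, 250 bases) and the *Srd5a2* sequence covers chr17:74047917-74048110 (minus strand, 194 bases).
Srd5a1: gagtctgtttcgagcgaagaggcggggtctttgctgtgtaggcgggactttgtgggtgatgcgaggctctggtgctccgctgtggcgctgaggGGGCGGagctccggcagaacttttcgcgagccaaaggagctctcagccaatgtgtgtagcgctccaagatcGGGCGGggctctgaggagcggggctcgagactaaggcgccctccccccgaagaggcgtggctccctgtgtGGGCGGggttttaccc
Srd5a2: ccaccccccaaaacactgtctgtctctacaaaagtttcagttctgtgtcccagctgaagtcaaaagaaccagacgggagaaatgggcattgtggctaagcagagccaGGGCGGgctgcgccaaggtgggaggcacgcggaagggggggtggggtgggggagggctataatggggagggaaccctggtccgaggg
The stretch upstream of *Srd5a1* held 3 GC boxes and 64.8% G and C, and that of *Srd5a2* held 1 GC box and 60.3% G and C. A GC box on either strand (GGGCGG or CCGCCC) occurred in 32.7% of the 32851 promoter windows of 250 bases listed by RefSeq, so these matches are a description of the letters. The glucocorticoid receptor half-site TGTTCT, or AGAACA on the other strand, was in no window of the 4 members listed there (*Esr1*, *Pgr*, *Srd5a1* and *Srd5a2*) and in 16.1% of all windows. The TATA box TATAAA, or TTTATA on the other strand, was in 12.4% of all windows and, among the members, in that of *Pgr* alone.

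The 4 libraries held 35051876 to 121090404 UMIs, and 0 to 6 cell barcodes were shared by any pair of them. Of the cells with 1 sample barcode, 3114 adult and 4942 explant cells were epithelial, meaning that the UMIs of 11 epithelial genes were at least 2 times those of the hematopoietic, endothelial and fibroblast markers. Cells with at least 10 UMIs of *Krt5* and *Krt14* per 10,000 were called basal (983 adult cells) and the others luminal (2131), and 265 cells (8.51%) lay between 5 and 20. Of genes that the limit did not use, *Trp63* was at 91.6 CPM (counts per 1000000 UMIs) in basal and 2.30 in luminal cells, and *Krt15* at 5844 and 408. Of the luminal markers, *Dpp4* was at 4.00 and 28.3 CPM and *Cd24a* at 113 and 350 CPM. *Krt8* (952 and 1021 CPM) and *Krt18* (1565 and 1607 CPM) were nearly equal in basal and luminal cells. In the explants the limit separated cells less cleanly, since 54.4% of the explant cells called luminal held a *Trp63* UMI. One gene of the fibroblast list, *Dcn*, was counted in basal cells, so that the rule left out 1068 adult cells, 872 of them at the basal level of *Krt5* and *Krt14*. VP RFP+ basal cells reached 10 cells in run 2 alone for this reason, and comparisons that need them were made with a rule without *Dcn*, which was chosen after seeing the data.

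Levels are given as CPM of a profile, the sum of the UMIs of all cells of 1 run, population and compartment with at least 10 cells. Over the 38 adult profiles, the members differed widely in how many UMIs support them, and this sets what can be said of each: 1797 UMIs of *Nr3c1*, 946 of *Esr1*, 934 of *Srd5a1*, 82 of *Pgr*, 63 of *Hsd11b2* and 4 of *Srd5a2*. *Nr3c1* and *Esr1* were found in all 38 profiles, *Srd5a1* in 36, *Pgr* in 26, *Hsd11b2* in 19 and *Srd5a2* in 3. In the fit across all genes of the 29 intact profiles, *Nr3c1*, *Esr1*, *Srd5a1* and *Hsd11b2* passed the filter on low counts, while *Pgr* and *Srd5a2* did not and have no test.

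**Figure D1:**
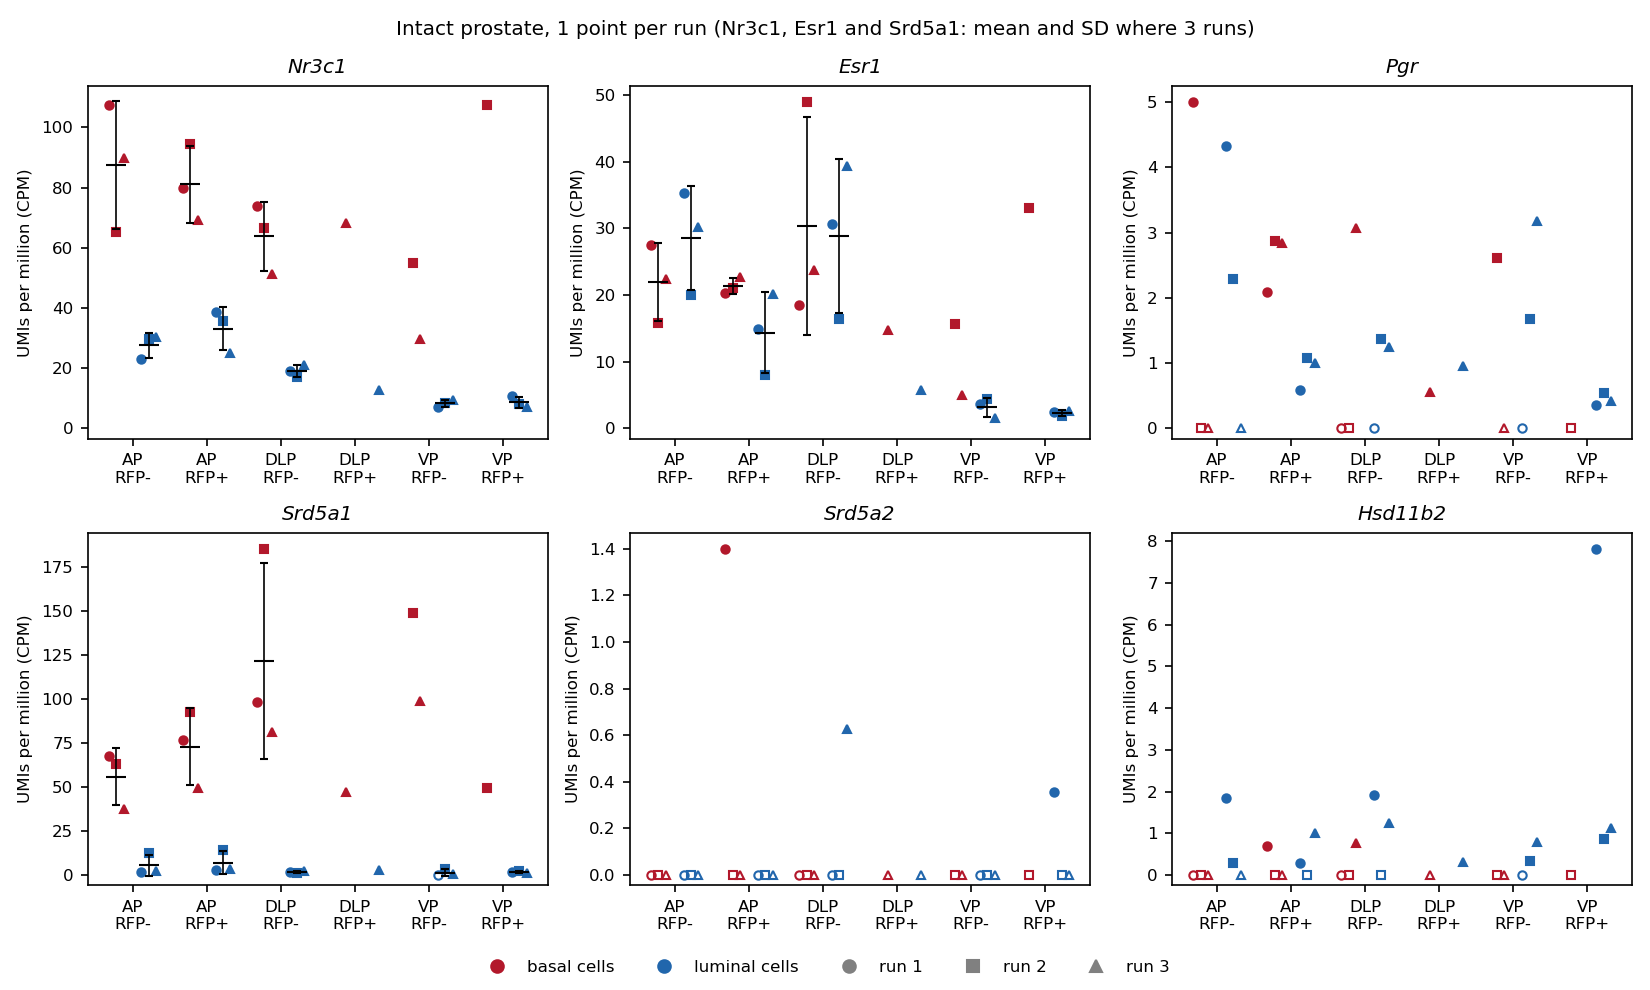
Level of each member (CPM, y axis, linear) in every intact profile, by lobe, RFP and compartment (x axis); red points are basal and blue points luminal cells of a run, open points are at 0 UMIs, and horizontal bars with SD are means over 3 runs in the panels of *Nr3c1*, *Esr1* and *Srd5a1*. *Nr3c1* and *Srd5a1* sat higher in basal than in luminal profiles of each lobe, *Esr1* was lowest in VP luminal profiles (1.59 to 4.37 CPM), and *Srd5a2* was at 0 in most profiles.

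The first comparison asked how the members differ between basal and luminal cells. In AP RFP+ cells, 21.1% of 11413 tested genes differed (10.2% higher and 10.9% lower in luminal cells; edgeR quasi-likelihood test, adjusted p under 0.05), and of the 4 tested members 2 were lower in luminal cells and 0 were higher. In VP RFP+ cells, with the rule without *Dcn*, 35% of 11737 genes differed (19.1% higher, 15.9% lower), and 3 of 4 members were lower and 0 higher. The fourth, *Hsd11b2*, was at 3.25 ± 3.90 CPM in luminal and 1.19 ± 2.06 CPM in basal VP RFP+ cells (SD, n = 3), which did not pass the adjustment (log2 fold change 2.98, SE 1.41, edgeR adjusted p = 0.107, unadjusted p = 0.0457), and it differed by 0.49 (SE 1.60, edgeR adjusted p = 0.877) in AP RFP+ cells.

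*Nr3c1* was higher in basal than in luminal cells of both lobes tested. In AP RFP+ cells it was at 79.7, 94.6 and 69.2 CPM in basal cells of runs 1, 2 and 3, and at 38.8, 35.5 and 25.1 CPM in luminal cells of the same runs. All basal values lay above all luminal values (means 81.2 ± 12.8 and 33.1 ± 7.12 CPM, SD, n = 3), a 2.34-fold difference (log2 fold change luminal minus basal -1.23, SE 0.21, edgeR adjusted p = 0.000150). In VP RFP+ cells *Nr3c1* was at 78.7, 99.1 and 53.5 CPM in basal and 11.3, 8.43 and 8.02 CPM in luminal cells, again without overlap, and the fitted difference was 3.69-fold (log2 fold change -1.88, SE 0.27, edgeR adjusted p = 4.49e-06). The fitted fold in VP is smaller than the ratio of CPM values, since the fit rescales library sizes, and the 50 most abundant genes took 67.2% of the UMIs of VP RFP+ luminal cells of run 2.

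The profiles outside these tests showed the same order for *Nr3c1*. AP RFP- cells held 107, 65.3 and 89.8 CPM in basal and 22.9, 29.8 and 30.2 CPM in luminal cells. DLP RFP- cells held 73.8, 66.4 and 51.3 CPM in basal and 19.1, 17.1 and 21.2 CPM in luminal cells. DLP RFP+ cells, identified in run 3 only, held 68.3 CPM in basal and 12.7 CPM in luminal cells. VP RFP- basal cells held 54.8 and 29.7 CPM in runs 2 and 3 against 7.21 to 9.55 CPM in luminal cells. The lowest basal profile of any lobe (29.7 CPM) thus lay below the highest luminal profile of AP RFP+ cells (38.8 CPM), although within each population the compartments did not overlap.

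*Esr1* was lower in luminal than in basal cells of each run in both lobes, and the difference passed the test in VP only. Whether it differed between the lobes was not tested. In AP RFP+ cells *Esr1* was at 20.3, 21.0 and 22.7 CPM in basal and 14.9, 8.08 and 20.1 CPM in luminal cells, a difference that did not pass the test (log2 fold change -0.52, SE 0.33, edgeR adjusted p = 0.282), nor did it with the rule without *Dcn* (-0.51, edgeR adjusted p = 0.207). In VP RFP+ cells, with the rule without *Dcn*, it was at 25.04, 22.3 and 14.3 CPM in basal and 2.82, 1.84 and 2.81 CPM in luminal cells, and these did not overlap. The fitted difference was 3.58-fold (log2 fold change -1.84, SE 0.40, edgeR adjusted p = 0.000705), and without run 2 it was -1.46 and missed the threshold (edgeR adjusted p = 0.0507).

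*Srd5a1* showed the largest difference between the compartments among the tested members. In AP RFP+ cells it was at 76.9, 92.7 and 49.3 CPM in basal cells of runs 1 to 3, and at 2.91, 14.5 and 3.52 CPM in luminal cells. The groups did not overlap (73.0 ± 21.98 against 6.99 ± 6.55 CPM, SD, n = 3), and the luminal value of run 2 stood above the others. The difference was 10.5-fold (log2 fold change -3.39, SE 0.52, edgeR adjusted p = 4.05e-05). In VP RFP+ cells it was at 71.5, 94.2 and 24.96 CPM in basal and 2.11, 2.49 and 1.41 CPM in luminal cells, a 13.8-fold difference without overlap (log2 fold change -3.78, SE 0.59, edgeR adjusted p = 1.72e-05).

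The same order held for *Srd5a1* in populations that were not tested. AP RFP- cells were at 67.4, 63.3 and 37.4 CPM in basal and 1.86, 12.3 and 2.63 CPM in luminal cells. DLP RFP- cells were at 98.3, 185 and 81.2 CPM in basal and 1.91, 1.37 and 2.50 CPM in luminal cells. VP RFP- cells were at 149 and 99.1 CPM in basal cells of runs 2 and 3, and at 0, 3.70 and 0.80 CPM in luminal cells of runs 1 to 3. Under the rule with *Dcn*, each intact basal profile (at least 37.4 CPM) lay above each intact luminal profile (at most 14.5 CPM). That rule leaves VP RFP+ basal cells of run 2 only, and under the rule without *Dcn* the lowest of these (24.96 CPM in run 3) was below 37.4 CPM.

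Other markers moved with the compartment. The summed level of the 5 fibroblast markers was 2246 to 2388 CPM in AP RFP+ basal and 66.4 to 118 CPM in luminal profiles, nearly all of it *Dcn* (2242 to 2382 CPM in basal profiles), while the collagen genes *Col1a1*, *Col1a2* and *Col3a1* were at most at 8.40 CPM and *Pdgfra* was at 0 in 2 of 3 basal profiles. The 4 dissociation-stress genes were at 6139 to 12393 CPM in basal and 3862 to 9258 CPM in luminal profiles, and their part in the differences of *Nr3c1* and *Srd5a1* was not tested. Where epithelial UMIs had to be 5 times the others, with *Dcn* still counted, 69 of the 259 AP RFP+ basal cells were left, and the differences between luminal and basal cells missed the threshold (*Nr3c1* -0.57, edgeR adjusted p = 0.207, and *Srd5a1* -2.59, edgeR adjusted p = 0.0676). In adult cells classed as fibroblasts by their markers, *Nr3c1* was at 83.4 CPM and *Srd5a1* at 6.29 CPM. These are pooled levels of few cells, and the part of such cells in the basal profiles was not tested. The mesonephric list (93.7 to 141 CPM in basal and 841 to 1021 CPM in luminal AP RFP+ profiles), the urothelium list (11.4 to 29.4 and 156 to 332 CPM) and the hematopoietic list (19.9 to 40.1 and 71.1 to 83.0 CPM) moved with the compartment too.

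**Figure D2:**
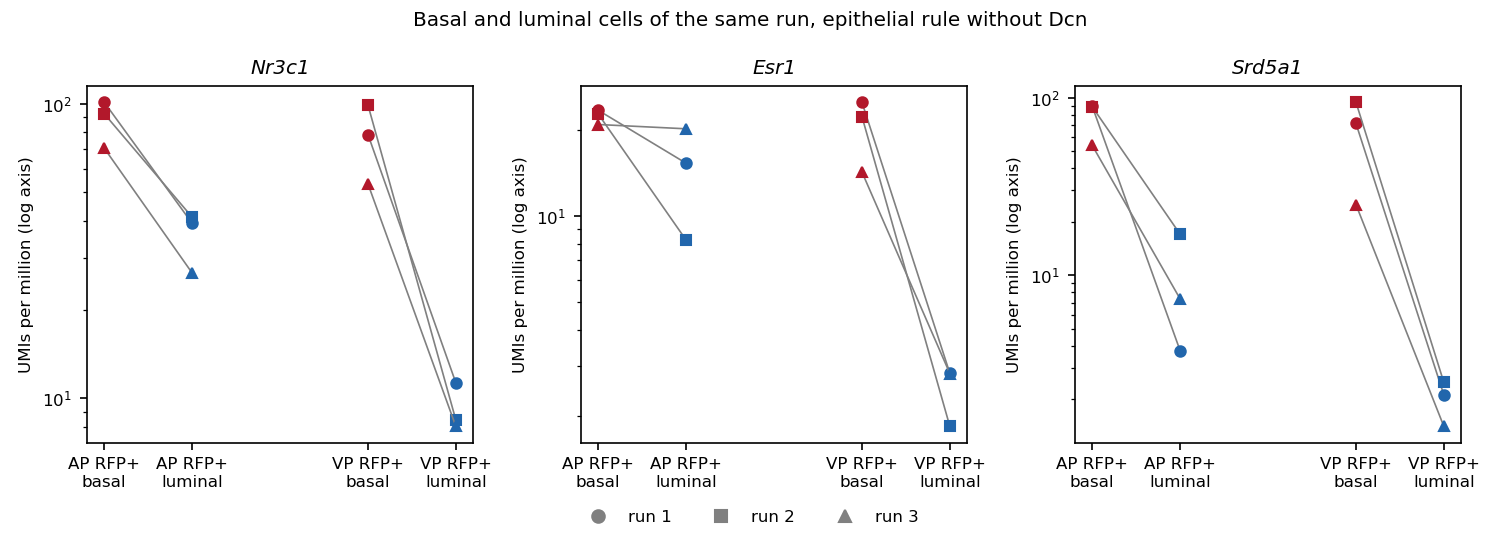
Level of *Nr3c1*, *Esr1* and *Srd5a1* (CPM, log y axis) in basal (red) and luminal (blue) cells of intact AP RFP+ and VP RFP+ populations, with *Dcn* left out of the epithelial rule in both lobes; marks are runs 1 to 3, and lines join cells of the same run. The lines fall from basal to luminal cells in each pair, and the *Esr1* line of AP RFP+ cells of run 3 is nearly flat.

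The high luminal values of *Srd5a1* in run 2 came from few cells. In that run, 25 luminal cells held at least 2 UMIs of *Upk3a*, which encodes a uroplakin of the urothelium, and together 635 of them; runs 1 and 3 held no such cell. These 25 cells carried 97 *Srd5a1* UMIs, or 165 CPM (95% exact Poisson interval 134 to 201, which covers counting error only). The luminal cells of fewer *Upk3a* UMIs carried 19, 65 and 32 *Srd5a1* UMIs in runs 1, 2 and 3, and their levels were close to each other at 2.08, 2.25 and 2.03 CPM. The 25 cells came from castrated as well as intact mice. Leaving them out took the intact luminal cells of run 2 from 110 to 107 in AP RFP+ and from 151 to 147 in AP RFP-. Castrated AP RFP+ luminal cells went from 209 to 202 and castrated AP RFP- cells from 51 to 43. The intact AP RFP+ luminal value of run 2 was then 4.47 CPM and the intact AP RFP- value 2.08 CPM. The basal to luminal difference in intact AP RFP+ cells was larger (log2 fold change -4.30, edgeR adjusted p = 3.71e-08). The *Upk3a* limit was set after these values had been seen.

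**Figure D3:**
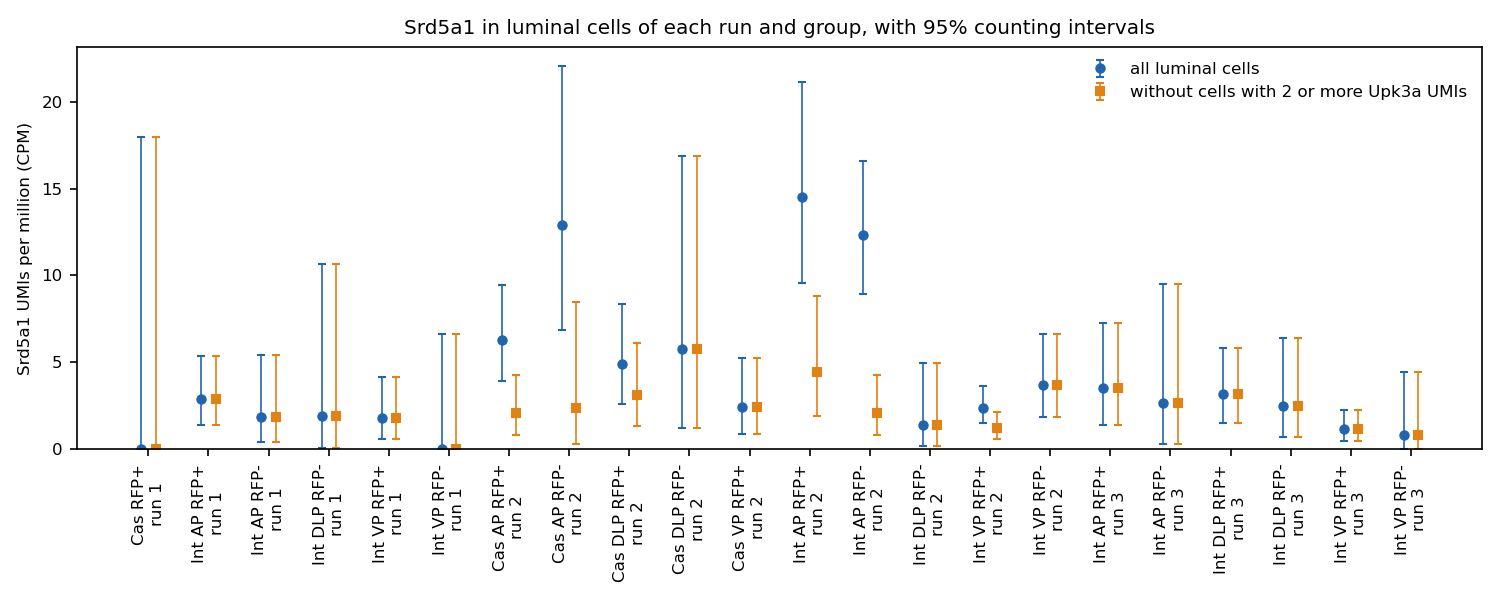
*Srd5a1* level (CPM, linear y axis) in luminal cells of each adult population and run (x axis; Int is intact and Cas castrated), for all luminal cells (blue circles) and without the cells of at least 2 *Upk3a* UMIs (orange squares), with 95% exact Poisson intervals as bars. The intact AP RFP+ and RFP- values of run 2 go from 14.5 and 12.3 CPM to 4.47 and 2.08 CPM, while in runs 1 and 3 both marks are at the same level.

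The second comparison asked whether the members differ between RFP+ and RFP- cells. In AP luminal cells 19% of 11413 genes differed (10.6% higher and 8.43% lower in RFP+; 28.6% with the run as a block), and of 4 members 1 was lower in RFP+ cells and 0 were higher. In VP luminal cells 0.263% differed (0.00876% higher, 0.254% lower; 0.754% with the run as a block), and 0 of 4 members were called by edgeR, with 1 at an unadjusted p under 0.05, and 0 by DESeq2, which gave *Hsd11b2* no adjusted p. In AP basal cells 0% of genes differed by edgeR (0% higher, 0% lower), although 319 had an unadjusted p under 0.05, DESeq2 called 1, and the fit with the run as a block called 1 (0.00876%). Here, too, 0 of 4 members were called by either tool, and 0 had an unadjusted p under 0.05.

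*Esr1* was the member that differed with RFP. In AP luminal cells it was at 14.9, 8.08 and 20.1 CPM in RFP+ and at 35.3, 20.1 and 30.2 CPM in RFP- cells of runs 1, 2 and 3. RFP+ cells were lower in each run, while the highest RFP+ and the lowest RFP- value were both 20.1 CPM (means 14.3 ± 6.03 and 28.5 ± 7.74 CPM, SD, n = 3). The difference was 2.10-fold (log2 fold change -1.07, SE 0.31, edgeR adjusted p = 0.0160). It missed the threshold without run 1 (-0.84, edgeR adjusted p = 0.197) and without run 2 (-0.997, edgeR adjusted p = 0.0966). The 7 mesonephric markers summed to 841 to 1021 CPM in RFP+ and 23.7 to 198 CPM in RFP- AP luminal profiles, of which *Wfdc2* made up most (823 to 986 CPM in RFP+ profiles), while *Pax2* and *Pax8* were at 0 in all 6 luminal profiles. The urothelium list (156 to 332 CPM in RFP+ and 53.9 to 112 CPM in RFP- profiles) and the hematopoietic list (71.1 to 83.0 and 100.3 to 121 CPM) did not overlap either, and their part in the difference was not tested. Without cells that held at least 2 UMIs of *Pax2*, *Pax8* and *Hoxb7*, the *Esr1* difference was -1.03 (edgeR adjusted p = 0.0215).

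The other members showed no difference with RFP that passed the test. *Nr3c1* differed by 0.12 (log2, SE 0.22, edgeR adjusted p = 0.782) between RFP+ and RFP- AP luminal cells and by 0.00 (SE 0.29, edgeR adjusted p = 1) in VP luminal cells. *Srd5a1* differed by -0.29 (SE 0.61, edgeR adjusted p = 0.819) in AP luminal cells, a value that became 0.55 without the *Upk3a* cells and was not called either way. The RFP effect was also compared between AP and VP luminal cells, and for none of the 4 tested members did this difference of effects pass the test (*Esr1* -0.50, edgeR adjusted p = 0.796).

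The third comparison asked how the lobes differ. Between VP and AP RFP- luminal cells 12.2% of genes differed (6.19% higher and 6.03% lower in VP), with 1 of 4 members lower in VP and 0 higher. Between DLP and AP RFP- luminal cells 0.938% differed (0.552% higher, 0.386% lower; 2.68% with the run as a block), and 0 of 4 members were called by edgeR or by DESeq2, 0 of them with an unadjusted p under 0.05 by edgeR. Between VP and AP RFP+ basal cells, under the rule without *Dcn*, 0.17% differed (0.111% higher, 0.0596% lower; 1.05% with the block), and again 0 of 4 members were called by edgeR or reached an unadjusted p under 0.05.

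*Esr1* was again the member that differed. In RFP- luminal cells of runs 1, 2 and 3 it was at 3.61, 4.37 and 1.59 CPM in VP and at 35.3, 20.1 and 30.2 CPM in AP. The lobes did not overlap, and the fitted difference was 4.06-fold (log2 fold change -2.02, SE 0.42, edgeR adjusted p = 0.00170). Other markers separated these lobes as well: the hematopoietic list summed to 3.98 to 7.21 CPM in VP and 100.3 to 121 CPM in AP, the urothelium list to 3.98 to 16.2 and 53.9 to 112 CPM, and the stress genes to 2755 to 5058 CPM in AP, above each VP profile, and their part in the lobe differences was not tested. DLP RFP- luminal cells, at 30.6, 16.5 and 39.3 CPM, covered the AP range and did not differ from AP beyond the spread (log2 fold change 0.13, SE 0.31, edgeR adjusted p = 1). VP RFP+ luminal cells were as low as VP RFP- cells, at 2.49, 1.84 and 2.56 CPM, and the DLP RFP+ luminal profile of run 3 held 5.71 CPM. Basal cells showed no such order: *Esr1* differed by -0.13 (log2, SE 0.35, edgeR adjusted p = 1) between VP and AP RFP+ basal cells.

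*Nr3c1* was at 7.21, 8.41 and 9.55 CPM in VP and 22.9, 29.8 and 30.2 CPM in AP RFP- luminal cells. These values did not overlap, but with the scaling of the fit the difference missed the threshold (log2 fold change -0.72, SE 0.27, edgeR adjusted p = 0.0926), and it passed without the cells of at least 2 *Pax2*, *Pax8* and *Hoxb7* UMIs (-0.88, edgeR adjusted p = 0.0360). *Srd5a1* differed by -0.67 between VP and AP (SE 0.81, edgeR adjusted p = 0.692) and by -1.77 between DLP and AP (SE 0.89, edgeR adjusted p = 0.593), both against AP values raised in run 2. Without the *Upk3a* cells the VP to AP difference was 1.08 and was not called.

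*Pgr*, *Srd5a2* and *Hsd11b2* were too rare for a firm statement. *Pgr* was counted 3 times in each run in AP RFP+ basal cells (2.10, 2.87 and 2.84 CPM) and 2 times in each run in AP RFP+ luminal cells. In AP RFP- luminal cells it was counted 7, 8 and 0 times, and in VP RFP+ luminal cells 1, 5 and 3 times. AP RFP+ luminal cells held 0.583 to 1.08 CPM, below AP RFP+ basal cells in each run, and VP RFP+ luminal cells held 0.355 to 0.542 CPM, below both. These ranges of CPM did not overlap, but they rest on 9, 6 and 9 UMIs in all, and no test was made. The 50 most abundant genes took 66.7% to 67.2% of the UMIs of VP RFP+ luminal profiles, against 23.6% to 41.2% in AP RFP+ luminal profiles. This lowers the CPM of other genes in VP, and the order of the lobes without these genes was not examined.

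*Srd5a2*, the reductase best known from the male genital tract, gave 4 UMIs in all adult epithelial cells, or 0.0614 CPM (exact Poisson interval 0.0167 to 0.157). Of these, 2 were in AP RFP+ basal cells and 1 in VP RFP+ luminal cells of run 1, and 1 in DLP RFP- luminal cells of run 3. Outside the epithelium it was counted more often: 74 adult cells with fibroblast markers held 6 UMIs (9.44 CPM, interval 3.46 to 20.5), and 131 such explant cells held 10 (9.53 CPM, interval 4.57 to 17.5). These intervals lie above that of adult epithelial cells.

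*Hsd11b2* was counted mostly in VP RFP+ luminal cells, with 22, 8 and 8 UMIs in runs 1, 2 and 3 (7.82, 0.868 and 1.14 CPM). These cells also held the most UMIs in total of any intact group (19066847). In run 1 a single cell held 20 of the 22 UMIs, and without that cell's UMIs the value was 0.710 CPM. Intact DLP RFP- and AP RFP- luminal profiles reached 1.91 and 1.86 CPM, in groups that held 3 and 4 UMIs over 3 runs. RFP+ exceeded RFP- VP luminal cells by 2.62 on the log2 scale (SE 1.17), which did not pass the adjustment (edgeR adjusted p = 0.886, unadjusted p = 0.0364).

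The fourth comparison asked how the members differ after castration. It could be made in run 2 alone, with 1 pool of mice on each side, so that there is no replicate and no test. Ratios are given with exact 95% intervals that cover counting error only, and a gene is called where it is past 2-fold with an interval that leaves out 1. In AP RFP+ luminal cells 15.7% of genes were called (8.26% higher and 7.42% lower after castration), in AP RFP- luminal cells 14.7% (5.63% and 9.12%), in DLP RFP- luminal cells 9.64% (2.53% and 7.11%) and in AP RFP+ basal cells 11.8% (2.04% and 9.8%). In VP RFP+ luminal cells 40.8% were called (38.3% higher, 2.47% lower). There the 50 most abundant genes took 67.2% of the UMIs of intact and 35.2% of those of castrated cells, and with these genes left out of the totals 6.45% were called higher and 10.1% lower.

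*Esr1* was higher after castration in the RFP+ luminal gate. In AP RFP+ luminal cells it went from 8.08 CPM (15 UMIs, 110 cells) to 34.1 CPM (120 UMIs, 209 cells), a ratio of 4.22 (interval 2.46 to 7.78). In VP RFP+ luminal cells it went from 1.84 to 14.0 CPM, a ratio of 7.61 (4.15 to 14.5), which was 3.85 (2.10 to 7.33) without the 50 most abundant genes. In RFP- luminal cells the ratio was 1.14 (0.677 to 1.84) in AP and 1.05 (0.431 to 2.35) in DLP, and neither was called. In AP RFP+ basal cells it was 1.92 (1.12 to 3.38), from 21.0 to 40.4 CPM, just under 2-fold. The intact AP RFP+ luminal profile of run 2 was the lowest of the 3 intact runs (14.9 and 20.1 CPM in runs 1 and 3), and the castrated RFP+ luminal cells of run 1, 11 cells of combined lobes, held 34.1 CPM from 7 UMIs.

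Other markers moved with castration in the same gates. In AP RFP+ luminal cells of run 2 the mesonephric list summed to 841 CPM in intact and 98.1 CPM in castrated mice, and the urothelium list to 174 and 268 CPM. In VP RFP+ luminal cells the hematopoietic list went from 4.45 to 56.5 CPM, the urothelium list from 11.7 to 71.4 CPM and the dissociation-stress genes from 2702 to 7539 CPM. The gate was set on the reporter, so a different mix of luminal cells in it and a change within the cells cannot be told apart for *Esr1* or any other ratio.

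*Nr3c1* was called in VP RFP+ luminal cells alone, while its intervals in AP RFP- and DLP RFP- luminal cells reached past 2-fold. Its ratio was 0.864 (0.630 to 1.19) in AP RFP+ luminal, 0.699 (0.415 to 1.12) in AP RFP- luminal, 1.01 (0.415 to 2.24) in DLP RFP- luminal and 0.854 (0.631 to 1.15) in AP RFP+ basal cells. In VP RFP+ luminal cells it went from 8.14 to 22.5 CPM, a ratio of 2.76 (1.92 to 3.95), but the ratio without the 50 most abundant genes was 1.40 (0.970 to 2.00) and was not called.

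*Pgr* had at least 10 UMIs over both sides in VP RFP+ luminal cells only, with 5 UMIs in 192 intact and 10 in 136 castrated cells (0.542 and 4.01 CPM). The ratio was 7.39 (2.30 to 27.6), and 3.74 (1.16 to 13.9) without the 50 most abundant genes. Of the members with 10 UMIs, 3 of 4 were thus called higher in VP RFP+ luminal cells, against 38.3% of all genes, and 2 of 4 with the 50 genes left out, against 6.45%.

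*Srd5a1* was lower after castration in AP RFP+ basal cells, where it went from 92.7 CPM (97 UMIs, 78 cells) to 29.8 CPM (31 UMIs, 113 cells). The ratio was 0.322 (0.207 to 0.486), and it was no longer called with epithelial UMIs at least 5 times the others (0.468, interval 0.219 to 1.00, from 16 UMIs on each side). This made 1 of 3 members lower, against 9.8% of all genes. The intact runs 1 and 3 held 76.9 and 49.3 CPM in this population, so the castrated profile lay below all 3 intact profiles. The castrated DLP RFP+ and VP RFP+ basal profiles of run 2 held 24.9 and 36.9 CPM, from 6 and 4 UMIs.

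In luminal cells the *Srd5a1* counts were small once the *Upk3a* cells were left out. In AP RFP+ luminal cells it was 0.430 (0.234 to 0.784), from 14.5 to 6.26 CPM, and without those cells it was nearly the same at 0.464, from 8 intact and 7 castrated UMIs, with an interval (0.143 to 1.47) that held 1, so that it was no longer called. In VP RFP+ luminal cells the ratio was 1.01 (0.334 to 2.56), from 6 castrated and 22 intact UMIs. Without the *Upk3a* cells 6 and 11 were left (2.41 and 1.20 CPM). In AP RFP- luminal cells the ratio was 1.05 (0.516 to 1.98), from 13 castrated and 43 intact UMIs. Of these, 2 and 7 were left without the *Upk3a* cells, under the minimum of 10 UMIs for a ratio. In AP RFP+ luminal cells 1 of 3 members was therefore higher and 1 lower, and in AP RFP- and DLP RFP- luminal cells 0 of 3 and 0 of 2 were called.

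**Figure D4:**
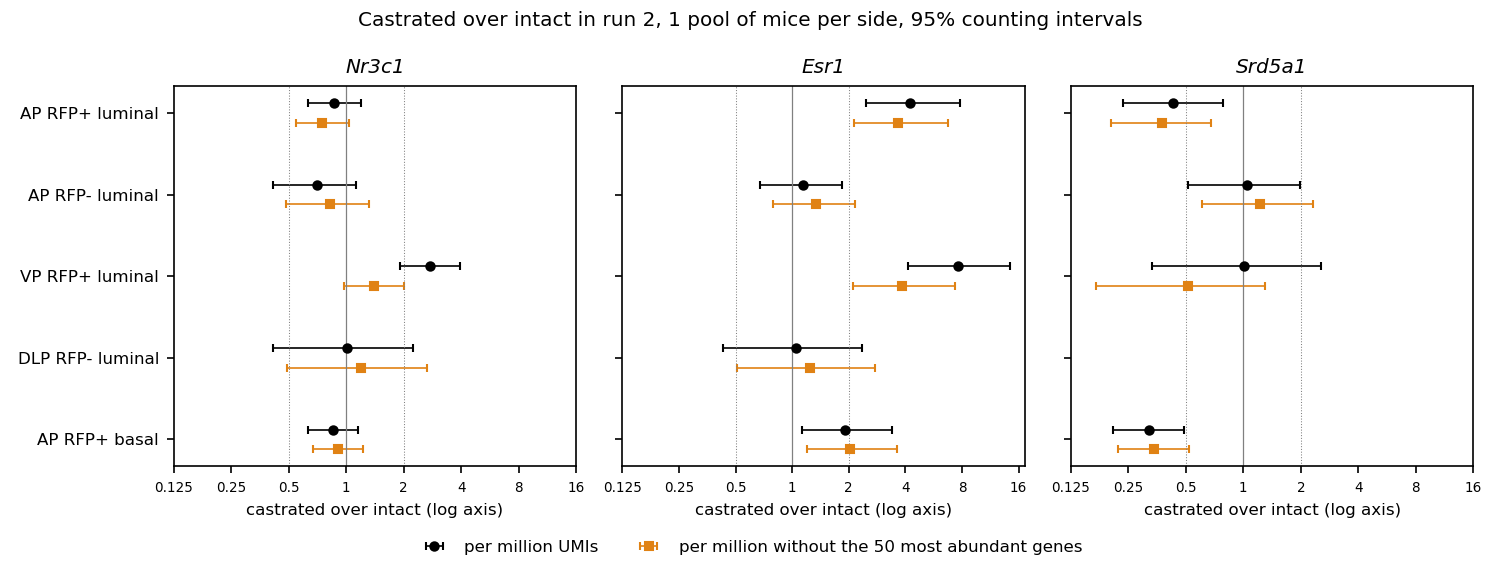
Ratio of castrated to intact level (log x axis) of *Nr3c1*, *Esr1* and *Srd5a1* in 5 populations of run 2 (y axis), where both sides together held at least 10 UMIs, with exact 95% intervals as bars; black circles use all UMIs, orange squares leave the 50 most abundant genes out of the totals, and dotted lines mark the 2-fold limits. *Esr1* lies to the right of 2 in both RFP+ luminal populations, and *Srd5a1* lies at 0.322 in AP RFP+ basal cells.

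The fifth comparison followed the members over the explant culture, in 1 library, so that again no test was possible. Of all genes, 8.01% were called from day 0 to day 1, 7.56% from day 1 to day 3 and 6.13% from day 3 to day 6, and of the members with at least 10 UMIs 0 of 5, 0 of 5 and 0 of 4 were called. *Nr3c1* was at 90.7, 70.9, 54.5 and 66.1 CPM at days 0, 1, 3 and 6, falling to day 3 (ratios 0.782 and 0.769) and higher again at day 6 (1.21). *Srd5a1* changed less, at 89.2, 74.6, 77.7 and 86.6 CPM. *Esr1* was low throughout and lowest at the last day, at 5.37, 3.86, 3.53 and 2.38 CPM.

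*Srd5a1* in the explants was at 96.0, 74.0, 81.1 and 84.2 CPM in basal and 84.1, 75.2, 73.7 and 90.3 CPM in luminal cells of days 0, 1, 3 and 6. With all cells, luminal values were thus below basal ones at days 0 and 3 and above them at days 1 and 6. Luminal values without the cells of at least 2 *Upk3a* UMIs were 73.3, 57.1, 61.5 and 77.1 CPM. Such cells were left out on the luminal side only, so these values cannot be set against the basal ones. Over all days and cells the *Srd5a1* level was 82.8 CPM, against 68.4 CPM in adult basal and 3.91 CPM in adult luminal cells. *Nr3c1* kept a higher level in basal cells at each day (112, 76.3, 65.1 and 73.5 CPM against 74.6, 65.3, 41.9 and 54.6 CPM). As the compartments of the explants shared *Trp63*, these values do not describe the adult classes, and adult and explant libraries were not compared by a test.

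*Pgr* was at 2.21, 3.67, 2.68 and 1.95 CPM over the days, and higher in cells called luminal (3.102, 5.66, 3.29 and 2.20 CPM) than basal (1.03, 1.78, 2.17 and 1.79 CPM). *Srd5a2* gave 3 UMIs, all at day 1, and *Hsd11b2* gave 20 in all.

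**Figure D5:**
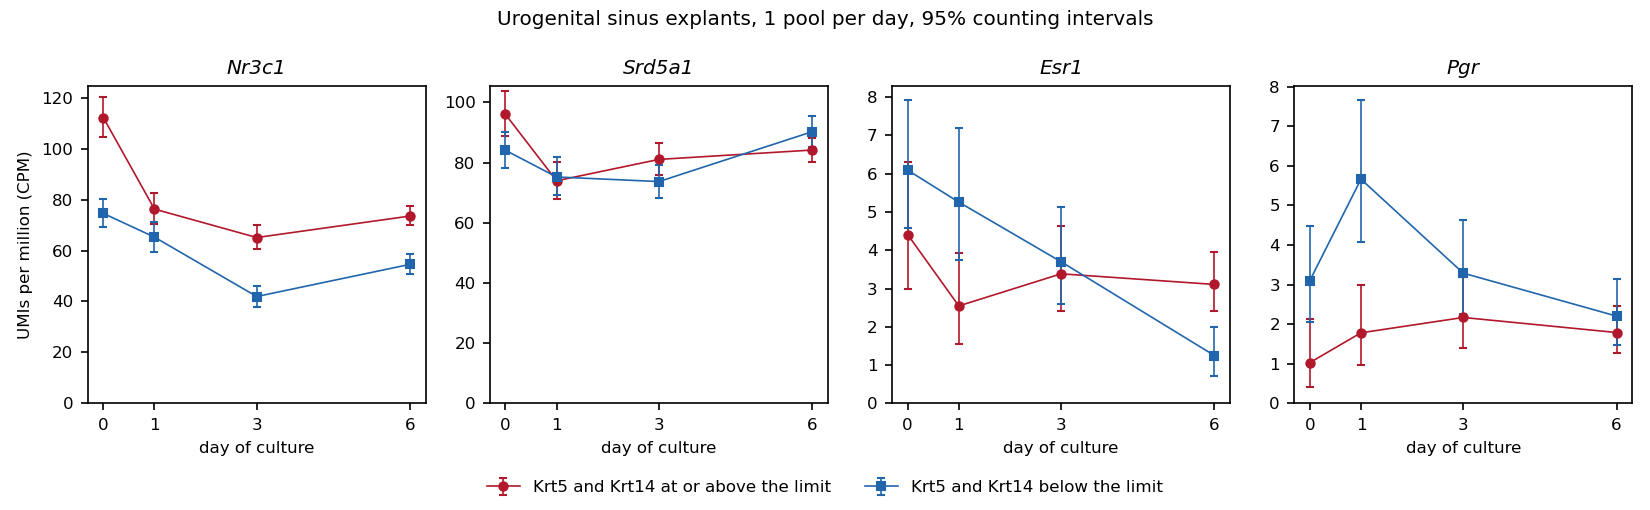
Level of *Nr3c1*, *Esr1*, *Pgr* and *Srd5a1* (CPM, y axis) in explant epithelial cells at days 0, 1, 3 and 6 (x axis), for cells called basal (*Krt5* and *Krt14* at or above the limit, red) and luminal (below it, blue), with exact 95% Poisson intervals as bars. *Nr3c1* is lower at day 3 than at day 0 in both, and *Srd5a1* stays between 73.7 and 96.0 CPM.

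Other genes of the pathway were followed by lists, whose medians are set beside those of all tested genes. Of 9 other steroid receptors, 6 were tested, and 3 of these were higher in luminal than in basal AP RFP+ cells (median log2 fold change 0.61, all genes 0.04). Of 12 chaperones and coregulators 0 were higher and 2 lower (median -0.25), and of 14 tested steroid enzymes 2 were higher and 0 lower (median 0.11). Of 12 genes known to be induced by glucocorticoid receptor, 4 were lower in luminal cells and 0 higher (median -0.98). In VP RFP+ cells these counts were 2 higher and 1 lower of 6 receptors (median 1.07) and 1 and 2 of 12 chaperones and coregulators (-0.06). They were 3 and 0 of 14 enzymes (-0.08), and 0 and 3 of 12 glucocorticoid-induced genes (-0.65, all genes 0.08). Of 7 tested genes induced by estrogen or progesterone receptor, 1 was higher and 1 lower in luminal cells of each lobe. Their median log2 fold changes were 1.27 in AP and 1.52 in VP RFP+ cells. Of all genes, 10.2% were higher and 10.9% lower in AP RFP+ cells, and 19.1% and 15.9% in VP RFP+ cells.

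*Errfi1*, a feedback inhibitor of EGF receptor, was at 88.7 CPM in luminal and 1214 CPM in basal VP RFP+ cells (log2 fold change -2.52, edgeR adjusted p = 0.00664). It was not called without run 2 (-2.33, edgeR adjusted p = 0.155). *Pgrmc2*, a membrane-associated progesterone-binding protein, was higher in luminal cells by 1.47 on the log2 scale (edgeR adjusted p = 7.16e-07). *Bag1*, a cochaperone, differed by 0.69 in the fit (edgeR adjusted p = 0.00294), although its CPM was lower in luminal cells (121 against 179), so that its direction depends on the scaling, and it was not called without run 2 or without run 3 (edgeR adjusted p = 0.0657 and 0.0574). *Stard3*, a cholesterol-binding protein of late endosomes, was at 66.4 and 19.3 CPM in luminal and basal AP RFP+ cells (1.78, edgeR adjusted p = 0.00232), a difference not called without run 2 (edgeR adjusted p = 0.0647).

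Between RFP+ and RFP- AP luminal cells, where *Esr1* was lower, *Ncoa3*, a coactivator of nuclear receptors, was higher in RFP+ cells, at 22.7 against 9.23 CPM (log2 fold change 1.07, edgeR adjusted p = 0.00231). *Wnt4*, a progesterone-induced signalling ligand in the mammary gland, was at 267 ± 111 and 27.6 ± 15.54 CPM (3.11, edgeR adjusted p = 2.91e-06), and *Cebpd*, a transcription factor induced by glucocorticoids, at 175 ± 10.7 and 32.02 ± 7.56 CPM (2.36, edgeR adjusted p = 3.34e-05). All 3 were higher in RFP+ cells of each run. Of the lists, 1 of 6 receptors (median log2 fold change 0.10), 1 of 12 chaperones and coregulators (-0.09) and 3 of 14 enzymes (0.18) were higher and 0 lower. Of 12 glucocorticoid-induced genes 3 were higher and 2 lower (median 0.36). Of 7 genes induced by estrogen or progesterone receptor 2 were higher and 1 lower (median 1.61). Of all genes 10.6% were higher and 8.43% lower (median 0.03). In VP luminal cells 0 genes of any list passed the edgeR test.

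Between VP and AP RFP- luminal cells, *Fkbp5* and *Tsc22d3*, both induced by glucocorticoid receptor, were higher in VP, at 63.0 ± 16.02 against 14.4 ± 3.39 CPM (log2 fold change 3.02, edgeR adjusted p = 2.32e-06) and at 44.8 ± 4.02 against 11.8 ± 1.34 CPM (2.84, edgeR adjusted p = 0.000228). *Hsd17b11*, a hydroxysteroid dehydrogenase, was at 5.72 ± 1.87 CPM in VP and 45.6 ± 1.96 CPM in AP (-1.91, edgeR adjusted p = 0.00584), and the chaperone gene *Hsp90ab1* at 995 and 3205 CPM (-0.74, edgeR adjusted p = 0.0239), and without run 2 neither was called (edgeR adjusted p = 0.0754 and 0.295), nor was *Hsp90ab1* without run 3 (edgeR adjusted p = 0.180). *Hsd17b10* and *Hsd17b12* passed the test with higher fitted levels in VP (0.63 and 0.83), but their CPM did not rise (83.4 against 107, and 27.5 against 29.6), so that this call depends on the scaling. Neither was called without run 3 (edgeR adjusted p = 0.616 and 0.213). By list, 1 of 6 receptors was higher (median log2 fold change 0.11), 1 of 12 chaperones and coregulators lower (-0.40), and of 14 enzymes 4 higher and 1 lower (0.15). Of 12 glucocorticoid-induced genes 2 were higher and 2 lower (median 0.42). Of 7 genes induced by estrogen or progesterone receptor 2 were higher and 1 lower (median -1.23). Of all genes 6.19% were higher and 6.03% lower (median -0.06).

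After castration, *Fkbp5* was picked from its list once its values had been seen. It was lower in AP RFP+ basal cells (85.0 to 9.62 CPM, ratio 0.113) and in AP RFP+ luminal cells (70.5 to 10.5 CPM, ratio 0.149). In VP RFP+ luminal cells it was lower too (53.8 to 18.4 CPM, ratio 0.343), and its ratio in AP RFP- luminal cells was 1.67. The ratio in DLP RFP- luminal cells is not given here. Of 12 glucocorticoid-induced genes with 10 UMIs in AP RFP+ basal cells, 0 were higher and 4 lower, against 2.04% and 9.8% of all genes. Of 11 in each luminal population, 2 were higher and 4 lower in AP RFP+ cells (all genes 8.26% and 7.42%), 3 and 2 in AP RFP- cells (5.63% and 9.12%), 1 and 5 in DLP RFP- cells (2.53% and 7.11%), and 6 and 2 in VP RFP+ cells (38.3% and 2.47%). The VP RFP+ counts use all UMIs, and without the 50 most abundant genes 6.45% of all genes were called higher and 10.1% lower there. Counts of the lists under that scaling are not given here. Among the AP and DLP populations, lower genes outnumbered higher ones except in AP RFP- cells. Of 5 genes induced by estrogen or progesterone receptor, 0 were higher and 2 lower in AP RFP+ luminal cells (median log2 ratio -1.45, all genes 0.11). In AP RFP- luminal cells 1 was higher and 1 lower of 4, and in DLP RFP- luminal cells 0 and 0 of 4. In VP RFP+ luminal cells 1 was higher and 0 lower of 3, and in AP RFP+ basal cells 2 and 1 of 4. Which receptor lay behind any of these changes, the androgen receptor included, was not tested.

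The genes whose log2(CPM + 1) ran most nearly with that of a member over the 38 adult profiles were sought among 4819 genes. For *Nr3c1* these were *Crim1* (Pearson r 0.957), *Tln1* (0.946) and *Cebpb* (0.946), and for *Srd5a1* they were *Col18a1* (0.933), *Camk4* (0.933) and *Lgals7* (0.923). *Esr1* ran most nearly with *Arglu1* (0.887), *Pcm1* (0.880) and *Mtpn* (0.877), while for *Pgr* and *Hsd11b2* the highest values were 0.551 (*P3h4*) and 0.597 (*Sqor*). The profiles share 3 libraries and fall into basal and luminal ones, so these values are a description.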

How the data were processed

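Reads had been aligned by the authors to mm10 with Cell Ranger 3.1.0. The deposited values are unnormalized UMI counts, given per cell for 31053 genes, and MULTI-seq barcode counts. The submitters' processing notes also name Seurat 3.1.5. Adult cells with 750 to 7500 genes and at most 10% mitochondrial UMIs, and explant cells with at least 1000 genes and at most 7.5%, were kept, and a cell was assigned to a population where 1 barcode was above its threshold. This left 824, 2194, 1673 and 5198 cells, with medians of 13055, 10618.5, 9750.0 and 14784.5 UMIs. DoubletFinder was not used. Doublets were treated by the barcodes, and, as an alternative, 6% of cells were left out by their Scrublet score (scanpy 1.11.5).

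UMI counts were summed per run, population and compartment with at least 10 cells. The 29 intact sums of 12 groups entered 1 fit in edgeR 4.0.16 (R 4.3.3, TMM scaling, filterByExpr, 2-sided quasi-likelihood test), with Benjamini-Hochberg adjustment over all tested genes and a threshold of 0.05. DESeq2 1.42.0 was an alternative. Same-numbered sums come from the same pools of mice, so runs pair the sums: their deviations from group means correlated at 0.38 to 0.74 over 2964 genes within runs, except for VP against AP (0.523, 0.01 and 0.304), and the fit with run as a block was an alternative. Comparisons without replicates were made as ratios with exact conditional binomial intervals, for genes with at least 10 UMIs over both sides. Scripts used Python 3.11.15, numpy 2.4.6, scipy 1.17.1, pandas 2.3.3 and matplotlib 3.10.9, and the fit was tested on simulated data.

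The members and lists were chosen with earlier results of these data known. Of each list, genes were named where they passed the test in a comparison of intact cells with a mean of at least 20 CPM, at most 4 per list by the size of the change, and *Fkbp5* after castration was chosen after its values were seen. Some genes that this rule names are not reported here. The other settings were other limits for basal cells (5 and 20 per 10,000), for epithelial cells (5 times), for UMIs per cell (7500) and for cells per sum (20), library sizes without the 50 most abundant genes, no filter on low counts, the 2 groups alone, and each run left out. The rule without *Dcn* and the removal of *Upk3a* cells were added after seeing the data.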

Additional observations from a re-analysis of the deposited data

Results flagged for a closer look

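Effects of RFP that differ between AP and VP luminal cells were found for 3 listed genes and for 0 of the 4 tested members. The RFP effect was higher in AP than in VP by 4.52 on the log2 scale for *Wnt4* (edgeR adjusted p = 1.27e-05), by 2.50 for *Fkbp5* (edgeR adjusted p = 0.00194) and by 2.14 for *Cebpd* (edgeR adjusted p = 0.0172). In VP luminal cells *Wnt4* was at 12.9 ± 7.32 CPM in RFP+ and 34.7 ± 12.1 CPM in RFP- cells, a difference that did not pass the test on its own (edgeR adjusted p = 0.152), *Fkbp5* at 49.9 and 63.0 CPM, and *Cebpd* at 27.2 and 21.7 CPM.

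The members were also counted in cells that the comparisons did not use. In adult cells with fibroblast markers *Nr3c1* was at 83.4 CPM, *Esr1* and *Srd5a1* both at 6.29 CPM and *Srd5a2* at 9.44 CPM. In explant cells with fibroblast markers *Nr3c1* was at 47.7 CPM, *Esr1* at 11.4 CPM, *Srd5a1* at 6.67 CPM, *Srd5a2* at 9.53 CPM and *Hsd11b2* at 12.4 CPM, against 0.229 CPM of *Hsd11b2* in explant epithelial cells. Adult cells with hematopoietic markers held *Nr3c1* at 57.3 CPM and *Esr1* at 2.69 CPM, and adult cells with endothelial markers held *Nr3c1* at 173 CPM and *Srd5a1* at 17.7 CPM. These are pooled levels of few cells, and no test was made.

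The 1068 adult cells that were epithelial only by the rule without *Dcn* held *Nr3c1* at 85.4 CPM, *Esr1* at 21.9 CPM, *Pgr* at 1.75 CPM and *Srd5a1* at 92.0 CPM. Adult basal cells of the first rule held 74.1, 22.6, 1.86 and 68.4 CPM of the same genes. The 125 explant cells of this kind held *Nr3c1* at 54.1 CPM and *Srd5a1* at 92.5 CPM.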

How the results depend on the processing

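For called members, 72 of 78 tests under alternatives kept direction and call. The 6 lost calls were those of *Nr3c1* between luminal and basal AP RFP+ cells (-0.57 with epithelial UMIs at least 5 times the others and -1.49 with the limit of 7500 UMIs per cell), of *Srd5a1* there (-2.59 with 5 times), and of *Esr1* when a run was left out: its RFP difference in AP luminal cells ranged from -1.35 to -0.84 and its luminal to basal difference in VP RFP+ cells from -2.23 to -1.46. The stricter rule left 69 of 259 AP RFP+ basal cells and the UMI limit left 69 basal and 114 luminal ones. Library sizes without the 50 most abundant genes moved the VP RFP+ castration ratios of *Esr1* to 3.85 and of *Nr3c1* to 1.40, and the limit of 7500 UMIs turned the AP RFP+ luminal ratio of *Srd5a1* to 1.83, from 2 and 1 UMIs. Of 51 castration ratios of called members, 46 kept the call, and besides these of *Nr3c1* and *Srd5a1* it was lost for *Srd5a1* in AP RFP+ luminal cells without the *Upk3a* cells (0.464) and in AP RFP+ basal cells with 5 times (0.468), and for *Esr1* in AP RFP+ luminal cells with the UMI limit (3.66, from 4 and 1 UMIs). Of members not called, *Srd5a1* between DLP and AP ranged from -2.29 to 0.22 and *Esr1* between RFP+ and RFP- VP luminal cells from -0.96 to 0.16 when a run was left out, both turning without run 2. For these the cause was not tested. In 35 further cases a value smaller than its SE changed sign without a call and was taken to have no direction. The replicate block changed no member's call: the *Esr1* difference with RFP in AP luminal cells was -1.11 with it (edgeR adjusted p = 0.00178).

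Counts of called genes moved by over 1.5 times as follows. Luminal against basal AP RFP+ cells (2412 genes) gave 896 with 5 times, 365 with the UMI limit and 1013 to 2103 without a run, and VP RFP+ cells (4104) gave 2041 to 3663 without a run. RFP in AP luminal cells (2167) gave 222 with the UMI limit, 3267 with the replicate block and 753 to 1739 without a run. RFP in VP luminal cells (30) gave 48 with DESeq2, 171 without the filter, 86 with the block, 46 without the highest Scrublet scores and 0 to 46 without a run. RFP in AP basal cells (0) gave 1 with the 2 groups alone, with DESeq2 and with the block, and 25 without the filter. VP against AP gave 514 to 1161 without a run (1395) in RFP- luminal cells, and 123 with the block and 0 to 13 without a run (20) in RFP+ basal cells. DLP against AP (107) gave 66 with the 2 groups alone, 3 with the UMI limit, 331 without the filter, 306 with the block and 6 to 90 without a run. After castration, AP RFP+ basal cells (1069) gave 655 with 5 times and 551 with the UMI limit, AP RFP+ luminal cells (1706) gave 496 with the UMI limit, and VP RFP+ luminal cells (4504) gave 1827 without the 50 most abundant genes. With the UMI limit the explants gave 283 from day 1 to day 3 (1078) and 339 from day 3 to day 6 (900).

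Depth limits the rare members most. Shares of cells with a UMI follow depth. Thinned to 5000 UMIs per cell, the share of intact AP RFP+ cells with an *Srd5a1* UMI fell in both compartments. It went from 50.2% to 27.9% in basal and from 4.86% to 1.91% in luminal cells (means of 3 runs). Thinning left out 21 of 259 basal and 45 of 483 luminal cells. Median depths in runs 1, 2 and 3 were 14277, 10055 and 9061 UMIs in these basal and 12900.5, 9477 and 9841 UMIs in these luminal cells.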
